A study of Mus musculus with 22 samples.

Results

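The gene-proximal Oct4 peaks are the deposited Oct4 ChIP-seq peaks whose summit, the position of highest signal, lay more than 1 kb and at most 10 kb from the nearest start of a protein-coding transcript (GENCODE M21, GRCm38). They were chosen by distance from the peaks that the authors had called, on chromosomes 1 to 19, with the wild-type and the knockout list kept apart. Bins of 1 Mb with 20 or more summits in either list were left out, which removed 19 bins. The rule found 580 of the 5455 wild-type peaks and 1101 of the 7479 knockout peaks. Of the wild-type peaks, 272 lay upstream and 308 downstream of the nearest start, and of the knockout peaks 540 lay upstream and 561 downstream.

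The ChIP was made on frozen aortic segments (root, arch and the vessel up to the carotid bifurcation) of C57BL/6 mice on an Apoe-/- background, fed a Western diet for 18 weeks to produce advanced atherosclerosis. SMC-Oct4+/+ mice are called wild-type here, and SMC-Oct4Δ/Δ mice, called knockout, lost Oct4 in smooth muscle cells (SMC) through a tamoxifen-induced Myh11-CreERT2. The Cre transgene is Y-linked, so all mice were male, and tamoxifen was given to both genotypes in young adult life, before the diet. There was 1 ChIP sample for each genotype, taken from 15 mice, and without replicates no genotype test could be made. The segments hold a mixture of cell types, and all cells other than SMC keep Oct4 in the knockout, so a site bound in those cells could be in both lists.

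Oct4, the product of *Pou5f1*, is a POU-domain transcription factor that maintains pluripotency in the early embryo. It binds the octamer, often next to Sox2 on a composite element, and much of its known binding in stem cells lies at enhancers some distance from promoters. Most differentiated cells keep its gene silent. The band from 1 to 10 kb around a start holds the first introns, upstream enhancers and many interspersed repeats. Among the latter, the short elements derived from 7SL RNA, the RNA of the signal recognition particle, are called B1 in rodents and Alu in primates.

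The octamer ATGCAAAT was sought on both strands within 100 bp of each summit, because it is the sequence that Oct4 itself recognizes. It was present in the windows of 8 wild-type and 16 knockout proximal peaks, called octamer peaks here. Of the 8 wild-type peaks 6 were overlapped by a knockout peak, against 80.2% of all autosomal wild-type peaks outside the dense bins, and of the 16 knockout peaks these same 6 sites were overlapped by a wild-type peak, against 47.3% of all such knockout peaks. The 6 sites in both lists were at *Ncoa1*, *Mtus1*, *Rad54l2*, *Xrn2* and *Tnrc6a*, each in an intron of the named gene, and at *Rasa1*, between genes. The single-copy octamer site called in the wild-type list alone, at *Cerk*, was intergenic. Its octamer lay 74 bp from the summit, outside the called peak (chr15:86194892-86194932). The sequence of this site below is from the RefSeq GRCm38 assembly (plus strand), with the octamer in capitals.
Cerk at chr15:86194876-86195000: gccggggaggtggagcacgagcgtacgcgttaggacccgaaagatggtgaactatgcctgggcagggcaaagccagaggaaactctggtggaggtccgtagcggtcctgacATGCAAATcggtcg

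At *Xrn2*, *Tnrc6a*, *Sema4b* and *Inpp4a* the same arrangement recurred, a SOX core (CATTGT) followed after 7 bases by the reverse complement of the octamer on the same strand, inside sequence that the assembly marks as repeat. This arrangement was noticed after the sequences were read. *Sema4b* was intergenic and *Inpp4a* lay in an intron. It was present in 4 of the 1101 knockout peaks (0.363%, exact 95% interval 0.0991 to 0.928) and in 2 of the 580 wild-type peaks, and in 0 of the 2202 and 0 of the 1160 windows of the same length placed 1000 bp to each side. The 2 wild-type peaks, at *Xrn2* and *Tnrc6a*, were at sites also among the 4 of the knockout. Sites at all other distances had the arrangement too. Within 1 kb it was in 1 of 122 knockout and 1 of 94 wild-type peaks, and from 10 to 100 kb in 4 of 2351 and 3 of 1351. Beyond 100 kb it was in 3 of 1254 knockout and 2 of 815 wild-type peaks. The composite element, a SOX core and octamer with 1 base between them, was found in 0 of 580 wild-type peaks and 0 of 1101 knockout peaks, which allows a share of up to 0.634% and 0.334% by the exact intervals.

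The share of proximal peaks with the octamer was 1.38% in the wild-type (8 of 580, exact 95% binomial interval 0.597 to 2.70) and 1.45% in the knockout (16 of 1101, interval 0.833 to 2.35). Here and below such intervals cover counting error within 1 sample only. In windows 1000 bp to each side the share was 0.862% in the wild-type list and 0.863% in the knockout list, and among 1876480 windows of 201 bp that tile all sequence at this distance from starts it was 1.29%, inside both intervals. Peaks beyond 100 kb from any start held the octamer more often, 3.80% in the wild-type (interval 2.60 to 5.36) and 5.26% in the knockout (interval 4.09 to 6.65), against 2.33% and 2.27% in their own side windows. Of these, only the knockout interval lay apart from that of the proximal peaks. From 10 to 100 kb the wild-type share was 2.29% (interval 1.56 to 3.24) and the knockout share 2.17% (interval 1.62 to 2.84). Within 1 kb the wild-type share was 5.32% (5 of 94, interval 1.75 to 11.98) and the knockout share 1.64% (2 of 122, interval 0.199 to 5.796). In both of these classes the intervals overlapped those of the proximal peaks. The octamer was more frequent upstream than downstream, with 6 of 272 against 2 of 308 wild-type peaks and 12 of 540 against 4 of 561 knockout peaks, but the intervals of the 2 sides overlapped in each list. The octamers lay a median of 56 bp from the wild-type summits and 32 bp from the knockout summits, and 3 of 8 and 8 of 16 were within 20 bp. Some lay farther from the summit than the whole width of the called peak, and so outside it. These were at *Mtus1*, *Rad54l2* and *Rasa1* in both lists and at *Cerk* in the wild-type list. In the knockout list they were also at *Vav3*, *Ubn2*, *Larp6* and *Plekhg3*.

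*Ncoa1*, a coactivator of nuclear receptors, had the highest of the octamer peaks, with a summit pileup (the number of fragments stacked at the summit, recovered from the deposited fold enrichment) of 18 in the wild-type list and 27 in the knockout list. In the wild-type its summit lay 1104 bp upstream of the nearest coding transcript start, inside an intron of a longer transcript, and the octamer 42 bp from the summit. *Rasa1*, which switches off Ras, had 11 fragments in both lists, *Rad54l2*, a helicase-like protein, 11 and 12, and *Mtus1*, a microtubule-binding protein, 9 and 11. *Xrn2*, a nuclear exoribonuclease, had 9 and 8, and *Tnrc6a*, a scaffold of microRNA silencing, 10 and 8. Within each of these 6 sites the exact Poisson 95% intervals of the 2 pileups overlapped, for *Ncoa1* from 10.7 to 28.4 in the wild-type list and from 17.8 to 39.3 in the knockout list.

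The knockout alone had an octamer peak at *Vav3*, a guanine nucleotide exchange factor (15 fragments), at *Ubn2*, a histone chaperone subunit (15), at *Plekhg3*, another exchange factor (14), and at *Fkbp1a*, the binding protein of FK506 (12). *Sema4b*, a semaphorin, *Larp6*, which binds collagen messenger RNA, *Inpp4a*, an inositol lipid phosphatase, and *Olfr1123*, an olfactory receptor, had 10 each, and *Drd3*, a dopamine receptor, 8. The wild-type alone had 1 such peak in sequence of single copy, at *Cerk*, the ceramide kinase, with 9 fragments. The remaining octamer peaks, at *Gm3259* in the knockout (11 fragments) and *Vmn2r120* in the wild-type (7), lay in sequence present in a median of 8 and 139 copies of the assembly. All of these pileups were low beside the highest proximal peaks, which reached 82 fragments.

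Another feature recurred at the summits. Near many of them the assembly read CCTGTAAT, the word at which human Alu elements differ in a single letter from mouse B1 elements (CCTTTAAT) and from 7SL RNA (CCTGTAGT). These words were chosen after the summit sequences were seen, and are called the Alu form, the B1 form and the 7SL form. *Acacb*, *Rab21*, *Hspg2* and *C1qb* held the Alu form, *Zfp949* and *Npffr2* runs of at least 15 bases identical to mouse 7SL RNA, and *Cyp27a1* and *Wnt5b* the B1 form. *Hspg2* and *C1qb* were intergenic, *Zfp949* lay in a non-coding exon and the other 5 in introns.

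The Alu form lay within 100 bp of the summit in 99 of 580 wild-type proximal peaks (17.1%, exact interval 14.1 to 20.4) and in 201 of 1101 knockout proximal peaks (18.3%, interval 16.0 to 20.7). In the windows 1000 bp to each side it was in 1.29% and 1.82%, and over all sequence at this distance from starts in 1.07%. The B1 form, which was the more frequent of the 2 in that sequence at 3.35%, was the less frequent at the summits, in 10.7% of wild-type peaks (interval 8.29 to 13.5) and 11.1% of knockout peaks (interval 9.29 to 13.1), against 4.40% and 4.27% in the side windows. Runs of 15 bases shared with 7SL RNA were in 5.69% and 6.63% of the peaks, against 0.0677% of the sequence. With all 4 features counted, 33.4% of wild-type and 36.1% of knockout proximal peaks held at least 1 of them.

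The words differed in where they lay around the summit. Of 101 Alu forms in the wild-type windows 92 had their centre within 20 bp of the summit (91.1%), as did 187 of 202 in the knockout (92.6%). The B1 form was within 20 bp in 32 of 63 and 76 of 124 cases. The plot of words around the summit shows a single narrow peak for the Alu form, and for the B1 form fewer words in the 10 bp to each side of the summit (7 in the wild-type list and 20 in the knockout list) than in the next 10 bp (25 and 56).

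**Figure D1:**
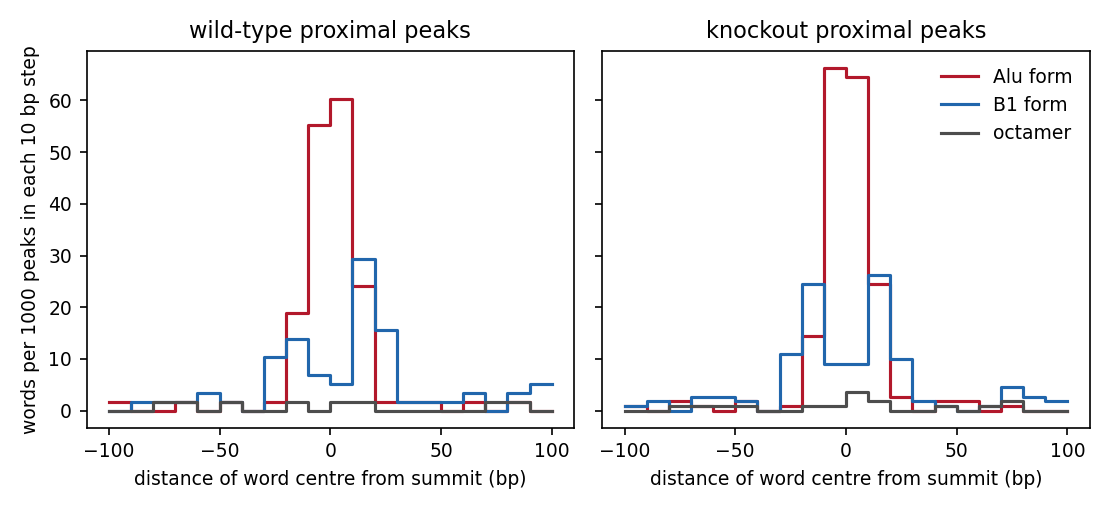
Number of words per 1000 proximal peaks in each 10 bp step (vertical axis) against the distance of the word's centre from the summit in bp (horizontal axis), for wild-type (left) and knockout (right) peaks. The Alu form is concentrated around the summit, with 92 of 101 and 187 of 202 words within 20 bp, while the octamer, with 8 and 16 words, stays near the axis.

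The Alu form was at lower shares farther from genes. Within 1 kb it was in 12.8% of wild-type peaks (interval 6.77 to 21.2) and 16.4% of knockout peaks (interval 10.3 to 24.2), which overlap the proximal intervals, and from 10 to 100 kb in 10.2% (interval 8.65 to 11.95) and 12.3% (interval 11.0 to 13.6), which do not. Beyond 100 kb it was in 4.29% of wild-type peaks (interval 3.01 to 5.92) and 5.90% of knockout peaks (interval 4.66 to 7.35), and neither interval overlapped that of the proximal peaks. The side windows of these classes also held it less often than the proximal side windows (1.29% and 1.82%). They had 0% and 0.820% within 1 kb and 0.888% and 0.957% from 10 to 100 kb. Beyond 100 kb the side windows had 0.798% and 0.917%. Among proximal peaks in single-copy sequence of the assembly it was in 18.6% of wild-type and 19.2% of knockout peaks. Upstream and downstream peaks had similar shares, 17.3% and 16.9% in the wild-type list and 19.1% and 17.5% in the knockout list. Sites in both lists had it in 18.5% of cases (86 of 466), knockout peaks with no wild-type peak in 18.1% (115 of 635) and wild-type peaks with no knockout peak in 11.4% (13 of 114, interval 6.21 to 18.7). The peak lists hold no reads, so whether the reads under the Alu and 7SL forms came from mouse DNA or from another species was not tested, and these sites are mouse Oct4 sites only as far as the authors' alignment places them.

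Simple repeats marked other summits. The telomere word TTAGGGTT was within 100 bp of 3.10% of wild-type proximal summits (interval 1.85 to 4.86) and 2.0% of knockout summits (interval 1.26 to 3.01), against 0.819% of the sequence, and was more frequent in the peaks beyond 100 kb, at 9.57% and 6.30%. GGAATGGA was in 1.55% and 1.18%, near its 1.14% of the sequence, but it lay under several of the highest peaks. *Greb1*, an estrogen-responsive gene, held the telomere word in an intron. *Olfr855*, an olfactory receptor gene, was nearest to the highest peak with GGAATGGA, between genes, and its summit sequence (plus strand) is shown with the repeat in capitals.
Olfr855 at chr9:19575434-19575514: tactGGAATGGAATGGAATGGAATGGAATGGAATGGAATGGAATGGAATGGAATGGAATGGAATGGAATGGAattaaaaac

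Among the other transcription factor words sought, only the KLF word was more frequent at proximal summits than in the sequence at this distance. The KLF word CCACACCC was in 3.79% of wild-type proximal peaks (interval 2.39 to 5.69) and 4.72% of knockout peaks (interval 3.55 to 6.15), against 1.61% of the sequence and 1.47% and 2.18% of the side windows. It was in 6.70% and 9.32% of the peaks with SINE words. In peaks without SINE or repeat words it was in 2.51% of the wild-type (interval 1.15 to 4.71) and 2.23% of the knockout (interval 1.25 to 3.65), intervals that include the 1.61% of the sequence. The SOX core CATTGT was in 7.93% and 8.81%, below its 11.1% of the sequence. The AP-1 word TGANTCA was in 4.83% and 5.18% against 5.79%, and the CArG box, to which serum response factor binds at SMC contractile genes, in 0.690% and 0.999% against 1.04%. For these last 2 words the share of the sequence lay within the intervals of both lists.

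Peaks were spread evenly over the band. The wild-type list had 1.54 proximal peaks per Mb of sequence (exact Poisson 95% interval 1.42 to 1.67) and the knockout list 2.92 (interval 2.75 to 3.10). Beyond 100 kb the densities were lower, 0.882 (interval 0.823 to 0.945) and 1.36 (interval 1.28 to 1.43), and from 10 to 100 kb they were between, at 1.33 and 2.31. Within 1 kb the knockout list had 2.0 peaks per Mb (interval 1.66 to 2.39), below its proximal band, while the wild-type list had 1.54 (interval 1.25 to 1.89). Across the 1 kb steps of the band the wild-type ranged from 1.21 to 2.0 and the knockout from 2.22 to 3.56, with no step whose interval lay apart from the band as a whole.

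**Figure D2:**
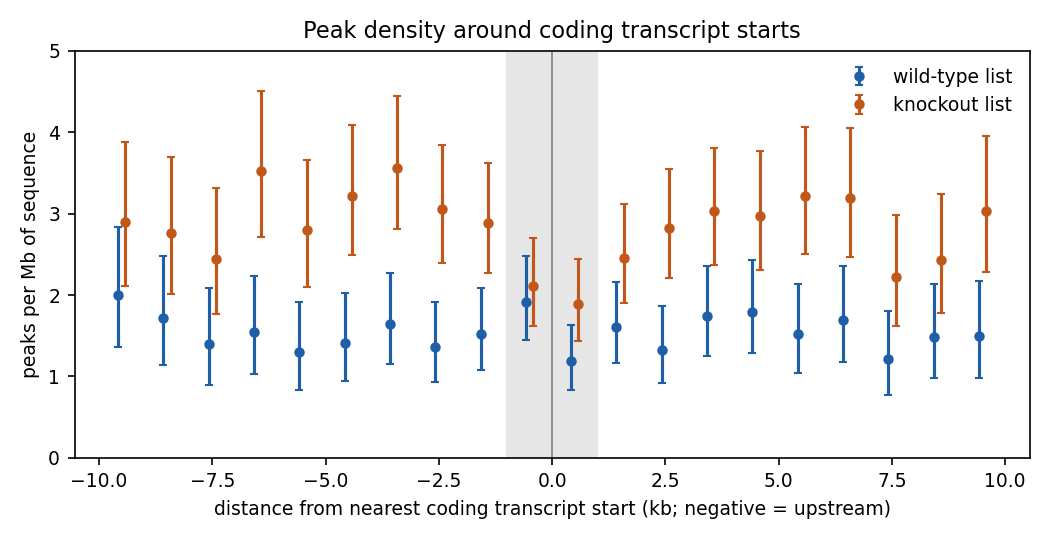
Peaks per Mb of sequence (vertical axis) in steps of 1 kb upstream (negative) and downstream of the nearest coding transcript start (horizontal axis, kb), with exact Poisson 95% intervals. The gray band marks the sequence within 1 kb, which is not proximal here. Knockout points range from 2.22 to 3.56 and wild-type points from 1.21 to 2.0 outside the gray band.

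The share downstream of the start was 53.1% in the wild-type (interval 48.9 to 57.2) and 51.0% in the knockout (interval 48.0 to 53.9), and per Mb the 2 sides were alike, 1.53 upstream and 1.55 downstream in the wild-type list and 3.03 and 2.82 in the knockout list. Introns of coding transcripts held 56.9% of the wild-type and 57.7% of the knockout summits, and 31.4% and 31.7% were intergenic. Downstream peaks were mostly inside their nearest gene (86.7% and 86.3%), upstream peaks less often (25.4% and 27.8%). Untranslated regions held 18 and 33 summits and coding exons 5 and 7. A start of a non-coding transcript lay within 1 kb of 3.45% of summits in each list. GC content was a median of 45.3% in both lists, and repeat-masked bases made up a mean of 50.5% and 51.1% of the 201 bp windows, against 30.8% of all sequence at this distance.

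The members nearest the limits of the rule had values like the rest. At 1 kb, the last wild-type peak inside was at *Troap* (1001 bp, 9 fragments) and the first outside at *Pdzph1* (995 bp, 10 fragments). The knockout peak of the same *Pdzph1* site fell inside at 1001 bp with 19 fragments, and the first outside was at *Dnajc12* (989 bp, 10 fragments). At 10 kb, the last wild-type peak inside was at *Snx27* (9998 bp, 10 fragments) and the first outside at *Scamp1* (10029 bp, 10 fragments), and in the knockout these were *Erc1* (9991 bp, 14 fragments) and *Snx27* (10003 bp, 11 fragments).

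Comparing the genotypes asks which sites depend on Oct4 in SMC. Of the 580 wild-type proximal peaks, 466 shared at least 1 bp with a knockout peak, or 80.3% (exact interval 76.9 to 83.5), against 80.2% of all 2840 autosomal wild-type peaks outside dense bins. Of the 1101 knockout proximal peaks, 466 shared at least 1 bp with a wild-type peak, or 42.3% (interval 39.4 to 45.3), against 47.3% of all 4828 autosomal knockout peaks outside dense bins and 48.7% of those at other distances (interval 47.1 to 50.3), whose interval did not overlap that of the proximal peaks. The knockout list held 1.90 times as many proximal peaks as the wild-type list, and 1.65 times as many peaks at other distances. The expected pileup was 0.462 fragments in the knockout and 0.458 in the wild-type. It scales with depth and with the length to which reads are extended. The narrowest peaks, 39 bp in the knockout and 41 bp in the wild-type, differed too, so these values do not show equal depth.

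Overlap followed the height of the peak. In the wild-type it was 41.3% of 92 peaks of 5 to 8 fragments, 72.9% of 170 peaks of 9 to 10, 89.5% of 95 peaks of 11 to 12, 95.6% of 90 peaks of 13 to 15, and 58 of 58 and 75 of 75 peaks above that. In the knockout it was 15.9% of 126 peaks of 5 to 8 fragments, 16.0% of 363 of 9 to 10, 31.8% of 192 of 11 to 12, 51.3% of 150 of 13 to 15, 85.8% of 134 of 16 to 20, and 135 of 136 above 20. No wild-type proximal peak above 14 fragments lacked a knockout peak, and the highest knockout peak without a wild-type peak had 22. Peaks at other distances gave intervals that overlapped those of the proximal peaks in every height class of both lists. In the knockout list, however, the shares at other distances were the higher from 9 to 20 fragments, at 21.04%, 39.2%, 60.7% and 87.8% by class. At 5 to 8 fragments the share at other distances was 15.6%, and above 20 it was 99.5%. In the wild-type list the proximal share was the lower only at 13 to 15 fragments. Whether height accounts for the lower overlap of knockout proximal peaks was not tested.

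**Figure D3:**
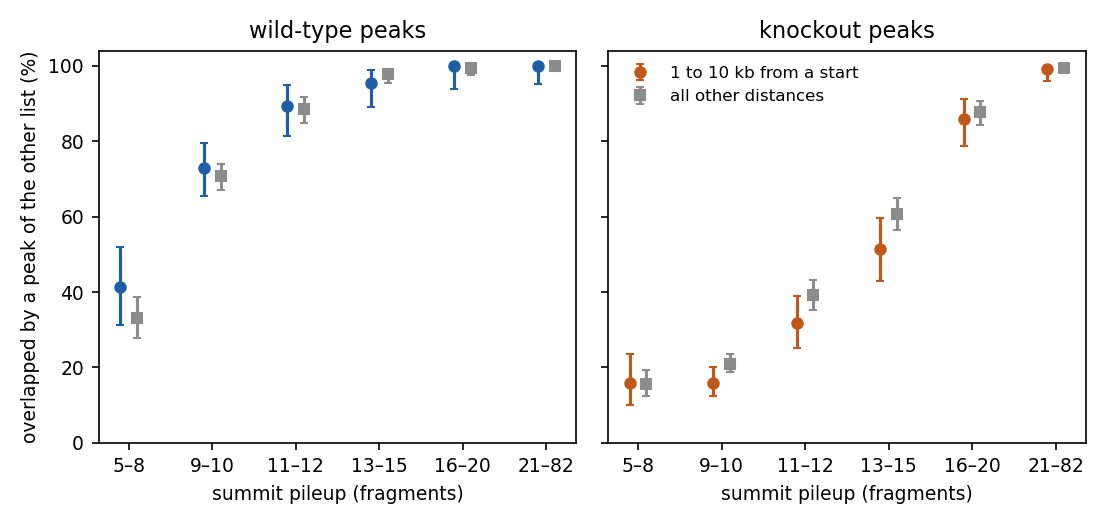
Share of peaks overlapped by a peak of the other list (vertical axis, %) by summit pileup in fragments (horizontal axis), for wild-type peaks (left) and knockout peaks (right), with exact 95% binomial intervals. Circles are proximal peaks and gray squares are peaks at all other distances. The share climbs from 41.3% to all peaks in the wild-type list and from 15.9% to 99.3% in the knockout list.

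At the 466 sites in both lists the summits lay a median of 3 bp apart, and 416 pairs were within 10 bp. The median pileup was 12 fragments in the wild-type list and 16 in the knockout list. The knockout was the higher of the pair in 360 sites, the wild-type in 73, and 33 were equal, with a median knockout to wild-type ratio of 1.23 (quartiles 1.06 and 1.44). At other distances the ratio was 1.18 and the knockout was higher in 66.7% of 1812 pairs, against 77.3% of the proximal pairs. At each of the 466 sites the Poisson intervals of the 2 pileups overlapped. All but 1 of the 466 partners were themselves 1 to 10 kb from a start.

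**Figure D4:**
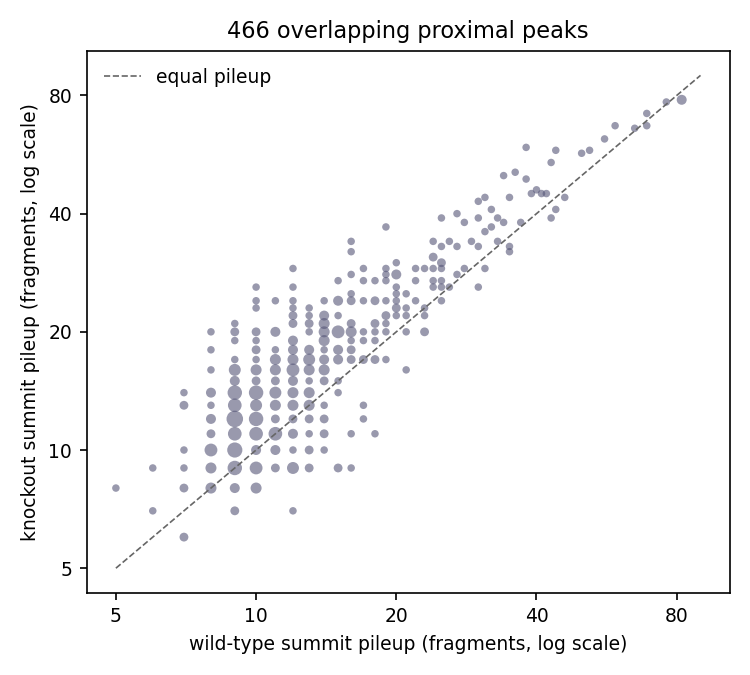
Summit pileup in the knockout (vertical axis, fragments, log scale) against the wild-type (horizontal axis, fragments, log scale) at the 466 proximal sites in both lists, with larger points for more sites at the same values. Of the sites, 360 lie above the dashed line of equal pileup and 73 below it.

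The highest proximal peaks were the same in both lists. All 10 of the highest in each list were called in the other, and 9 of the nearest genes were the same. *Gm10801* (chr2:98663642-98664092), *Gm10800* (chr2:98664877-98665222) and *Gm21738* (chr14:19415701-19419713) had 82 fragments in the wild-type list and 78 in the knockout list. These values are 2 times the narrowest peak width in each list, 41 and 39 bp, and no peak in either list exceeded them. If that width is the length to which reads were extended, this is the most that can stack once duplicate reads are removed, so these 3 heights are read as lower limits. *Olfr855*, with the GGAATGGA repeat, had 76 and 77 fragments, and *Greb1* and *Tcstv3*, with the telomere word, had 69 and 72, and 69 and 67. *Zfp949*, a zinc finger gene with the 7SL run, had 65 and 66, *Prl3c1*, a placental prolactin, 59 and 67, *Acacb*, an acetyl-CoA carboxylase, with the Alu form, 56 and 62, and *1700020N01Rik* 52 and 58. *Npffr2*, a neuropeptide receptor with the 7SL run, was among the 10 highest in the knockout alone, with 59 fragments against 38 in the wild-type. In each list 7 of the 10 held a SINE or simple repeat word, while 359 of all 580 wild-type and 672 of all 1101 knockout proximal peaks held none. Some of these high peaks lay in sequence present in many copies of the assembly. The median was 44 copies for *Gm21738* and 152 for *Prl3c1* in both lists. *Tcstv3* had 1849.5 (wild-type list) and 1835 (knockout list), and *Gm10800* had 2 and 4. The others of the 10 in each list lay in single-copy sequence.

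Peaks in 1 list alone were lower. The highest wild-type peaks without a knockout peak were at *C130032M10Rik* and *Pcdh20*, a protocadherin, with 14 fragments each, at *Oit3* and *Id4*, an inhibitor of basic helix-loop-helix factors, with 13 each, and at *Ptbp3*, an RNA-binding protein, with 12. *Oit3* held the B1 form, *Id4* the Alu form and *Pcdh20* the telomere word. The highest knockout peaks without a wild-type peak were at *Rab21*, an endosomal GTPase, with 22 fragments, at *Bcan*, the proteoglycan brevican, *Adcy3*, an adenylate cyclase, and *Retnlb*, a resistin-like molecule, with 20 each, and at *Trim54*, a ring finger protein of muscle, with 19. All 5 of these knockout peaks held a SINE word or the 7SL run, against 397 of all 1101 knockout proximal peaks. Knockout proximal peaks with these words were also higher, with an upper quartile of 18 fragments against 14 in peaks without SINE or repeat words. Over the lists, 114 wild-type peaks and 635 knockout peaks had no partner, and 60.5% and 86.1% of them were in single-copy sequence. Of all proximal peaks, 462 of 580 in the wild-type list and 943 of 1101 in the knockout list were in such sequence. The share was thus lower among wild-type peaks without a partner and similar among knockout peaks without one.

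Several proximal peaks gathered at 1 gene in a few places. *Gm14226* was nearest to 23 peaks, 12 wild-type and 11 knockout (chr2, in sequence of 1 to 5 copies), all downstream of its start, with fold enrichments from 4.80 to 5.49 in the wild-type list and from 4.79 to 7.52 in the knockout list. Only 4 sites among them were called in both lists at the same place. *Dock2*, an exchange factor for Rac in leukocytes, was nearest to 3 sites, each called in both lists, with 18, 12 and 6 fragments in the wild-type list and 19, 11 and 9 in the knockout list. *Pisd*, a phosphatidylserine decarboxylase, had 6 peaks, and *Csf2ra*, a receptor subunit for granulocyte-macrophage colony-stimulating factor, and *Coil*, which encodes coilin, had 5 each. Most genes had a single peak, 507 of 536 genes in the wild-type list and 967 of 1025 in the knockout list.

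The 536 genes nearest to a wild-type proximal peak were 2.59% of the 20722 autosomal protein-coding genes, and the 1025 genes in the knockout were 4.95%. Both lists named 453 genes, which is 84.5% of the wild-type genes and 44.2% of the knockout genes. Of 489 genes in 9 lists that fit the vessel wall and Oct4, 13 had a wild-type proximal peak (2.66%) and 32 a knockout proximal peak (6.54%). All 13 were among the 32. The 19 listed genes with a knockout peak alone had between 6 and 14 fragments.

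**Figure D5:**
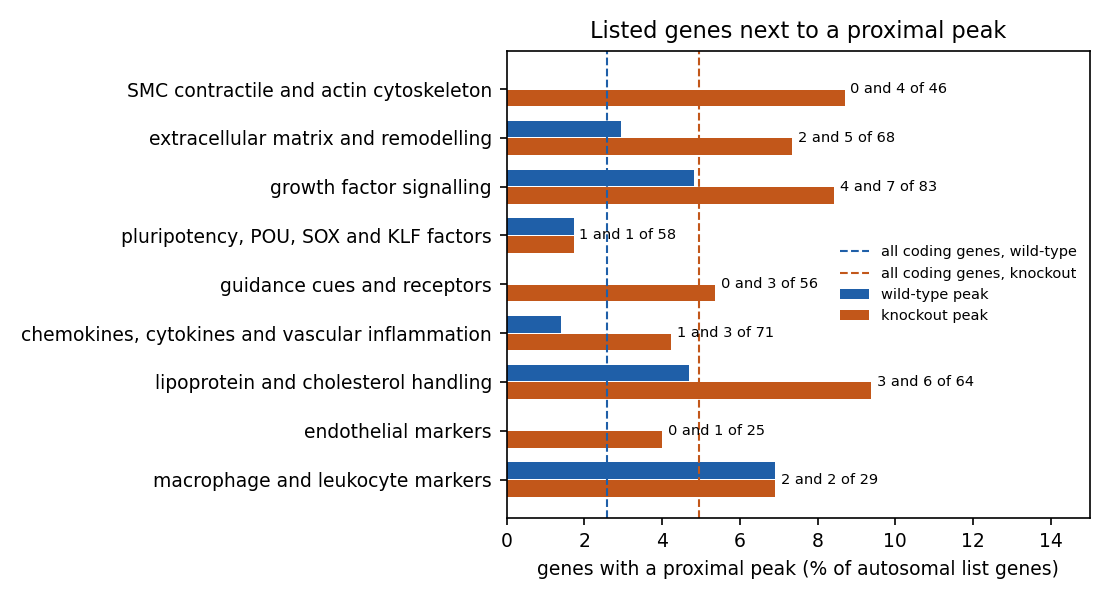
Share of the autosomal genes of each list with a wild-type (blue) or knockout (orange) proximal peak (horizontal axis, %), with counts beside the bars and dashed lines at the shares of all coding genes, 2.59% and 4.95%. Bars start at 0, and lists with 0 wild-type genes have no blue bar.

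Among SMC contractile and actin genes, 0 of 46 had a wild-type peak and 4 a knockout peak. These were *Cald1* (caldesmon, 12 fragments), *Tpm1* (tropomyosin), *Rock2* (a serine/threonine kinase that acts on the actin cytoskeleton) and *Mrtfa* (a coactivator of serum response factor), the last 3 with 9 fragments each. The *Tpm1* peak lay in sequence present in a median of 80 copies, and *Rock2* and *Mrtfa* held the 7SL run. No proximal peak in either list was nearest to *Acta2*, *Myh11*, *Tagln* or *Cnn1*.

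Among matrix genes, 2 of 68 had a wild-type and 5 a knockout peak. *Hspg2*, the basement membrane proteoglycan perlecan, had 16 fragments in the wild-type list and 21 in the knockout list, and held the Alu form. *Chad*, which encodes chondroadherin, had 14 and 19, and a second peak of 9 fragments in the knockout alone. Both *Chad* sites lay in an intron of another gene. The other 3 were in the knockout alone, *Mgp*, an inhibitor of vascular calcification, with 12, and *Fbn2* and *Lama4*, a fibrillin and a laminin chain, with 8 each. The *Lama4* peak lay in sequence present in a median of 55 copies, and *Fbn2* held the Alu form and the GGAATGGA repeat.

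Growth factor signalling had 4 of 83 genes in the wild-type list and 7 in the knockout list. *Lrp5*, a Wnt coreceptor, had 19 and 27 fragments, *Wnt5b*, a Wnt ligand, 18 and 21, *Smad4*, the common mediator of TGF-beta and BMP signals, 12 and 17, and *Bmpr1a*, a BMP receptor, 11 and 15. In all 4 the knockout was the higher, as in 77.3% of all proximal pairs. The Poisson intervals overlapped in all 4, as at each of the 466 proximal sites in both lists. *Notch3*, a Notch receptor of SMC, had 10 fragments, *Bmpr2* 9 and *Bmp6* 8, each in the knockout alone, and the *Bmpr2* peak held the B1 form in sequence of 6 copies. The *Lrp5* site held neither the octamer, the SOX core nor a SINE or repeat word and lay in an intron.

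*Il1r1*, the receptor of interleukin-1, had 16 fragments in the wild-type (interval 9.15 to 26.0) and 34 in the knockout (interval 23.5 to 47.5), in an intron 9086 bp from a start. The intervals overlapped, and its ratio was the largest among the 13 listed genes with a peak in both lists. Of 71 chemokine, cytokine and inflammation genes it was the 1 gene with a wild-type peak, and the knockout had 3, with *Irf5*, an interferon regulatory factor, at 9 and *Cxcl10*, a chemokine, at 6. The *Cxcl10* peak lay in an intron of another gene. Macrophage and leukocyte markers had 2 of 29 genes in each list, *C1qa* with 9 and 9 fragments and *C1qb* with 9 and 16, both complement subunits. Endothelial markers had 0 of 25 and 1 of 25, *Vwf* with 9 in the knockout, and it held the Alu form. Guidance genes had 0 of 56 in the wild-type list and 3 in the knockout list, the ephrin receptor *Epha4* with 14, the ephrin *Efna4* with 10, at the Alu form, and *Sema4b* with 10.

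Lipoprotein and cholesterol genes had 3 of 64 genes in the wild-type list and 6 in the knockout list. *Cyp27a1*, the sterol hydroxylase of the mitochondrion, had the highest pileups of any listed gene, 32 and 41 fragments, at the B1 form. *Mylip*, a ligase that degrades the LDL receptor, had 18 and 17. *Apoe*, the gene disrupted in these mice, had a wild-type peak of 7 fragments in a coding exon (chr7:19697069-19697112) and a separate knockout peak of 7 fragments in an untranslated region (chr7:19696159-19696197), which shared no base. *Cyp46a1* (13), *Scarb2* (11) and *Pltp* (9) had knockout peaks alone. Of 58 pluripotency, POU, SOX and KLF factors, *Pou4f3*, a POU factor of sensory neurons, had a peak in both lists with 10 and 9 fragments, and *Pou5f1*, *Sox2*, *Nanog* and *Klf4* had no proximal peak.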

How the data were processed

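Oct4 ChIP-seq peak lists of the wild-type and the knockout sample were analysed. The other samples of the series (22 in all) were not analysed here. The authors used Bowtie for alignment to GRCm38.p6 and SAMtools to drop duplicate reads, and MACS2 peaks had to pass a q-value of 0.05. Tool versions and the control used in the call are not given in the sources used here. Both lists carry "only" in their deposited names, although they share sites. A further deposited list, of wild-type over knockout, was identical in all 5455 rows to the wild-type list and was not used again.

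Each deposited peak gives a score (10 times the −log10 of the q-value), the fold enrichment, −log10 of the p-value and of the q-value, and the summit offset. The fold enrichment was taken as the summit pileup plus 1, divided by the expected pileup plus 1. From it the summit pileup was recovered as a whole number within 1.1e-05. A single expected pileup fitted all peaks of a list, 0.458 in the wild-type list and 0.462 in the knockout list. The fold enrichment of these peaks therefore did not vary with a local background. The peak lists hold no read totals, so the depth of each sample is unknown. The nearest of the starts of protein-coding transcripts was found for each summit. Words were sought on both strands in the 201 bp around the summit of the RefSeq GRCm38.p6 genome, in windows 1000 bp to each side, and in tiles over all sequence at 1 to 10 kb. The words were the octamer (ATGCAAAT), the SOX core (CATTGT), the KLF word (CCACACCC), the AP-1 word (TGANTCA), the Alu form (CCTGTAAT), the B1 form (CCTTTAAT), the 7SL form (CCTGTAGT), the GGAATGGA and TTAGGGTT repeats and the CArG box, with runs of 15 bases shared with the annotated mouse 7SL RNA genes. Copies were counted as the median number of places in the assembly that hold the 31-base words of the window, and a median of 1 was called single copy.

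Named genes were the nearest genes of the 10 peaks of highest fold in each list, the genes of the 9 lists, peaks with the octamer in single-copy sequence, the 5 highest peaks of each list without a partner, and the 5 genes with the most peaks. *Gm3259*, *Vmn2r120* and the peaks at the limits of the rule were named outside it. The members and gene lists were chosen with earlier results of these data known, and the SINE and repeat words and the spaced SOX and octamer arrangement after values were seen. With 1 sample per genotype no p-value was computed. Shares have exact (Clopper-Pearson) 95% intervals and counts exact Poisson intervals, both for counting error only, and peaks are not replicates. Alternatives varied the q-value limit, dense bins, transcript starts, overlap, copy number, window and mismatch. Scripts in Python 3.11.15 (numpy 2.4.6, pandas 2.3.3, scipy 1.17.1, matplotlib 3.10.9) were tested on simulated data. Summit sequences of some of the named sites are not reported here.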

Additional observations from a re-analysis of the deposited data

How the results depend on the processing

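No paired analysis was possible because each genotype had 1 sample. Of 36 alternatives to 10 results, 28 kept the value within 1.5 times the count or within its counting interval. With the starts of all annotated transcripts the proximal band held 1087 wild-type and 1954 knockout peaks, in place of 580 and 1101. The share of wild-type peaks overlapped by a knockout peak, 80.3%, was 71.6% with no bins left out, 85.1% in single-copy sequence and 74.7% without peaks that hold SINE or repeat words, the last an alternative chosen after seeing the data. The knockout share with the octamer was 0.817% within 50 bp of the summit. With 1 mismatch allowed it was 16.5% in the knockout and 16.0% in the wild-type, against 17.3% and 19.1% in the side windows. The lists hold no peak under 5 fragments, so weaker sites cannot be seen in either genotype, and a site in 1 list alone may lie just under the limit of the call in the other.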
